A study of Mus musculus with 48 samples.

Results

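Interferon-stimulated genes were followed in the subcutaneous white adipose tissue (sWAT) of mice fed on a pair of schedules. The members were 9 genes picked by name, Ifit1, Ifit2, Ifit3, Isg15, Irf7, Oasl2, Rsad2, Usp18 and Ifi44. Each was found under 1 identifier among the 54532 genes of the count table, and all 9 were among the 19977 genes that passed the filter on low counts. The animals were C57BL/6 mice by their labels (C57BL/6J in the study's methods), 8 months old, that had food at all times (ad-lib) or only within a pair of windows in the dark phase (TAN, for twice-a-night feeding). RNA from the inguinal fat pad, which is the sWAT depot, was sequenced at 8 a.m., 12 p.m., 4 p.m., 8 p.m., 12 a.m. and 4 a.m. Each of the 6 times had 4 libraries per diet, 48 in all, with total counts of 15636378 to 29913310 per library (median 20882118). The labels do not say that the libraries of a group came from separate animals, so the p-values measure the spread between these libraries, part of which may be technical. The study's methods describe male littermates housed in groups by diet, with TAN mice eating somewhat less than ad-lib mice.

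The submitters' design text calls the material a stromal vascular fraction, whereas the paper calls it whole sWAT. Genes that mark adipocytes were abundant in every library. The summed level of 8 of them, among them Adipoq and Plin1, ran from 8615 to 64743 CPM, the count of a gene scaled to a common library size, with a median of 29806 CPM. The scaling used TMM factors, which put libraries of different depth and composition on 1 scale.

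Type I interferons act on a receptor made of IFNAR1 and IFNAR2, whose kinases JAK1 and TYK2 activate transcription factors such as STAT2. With IRF9 it takes part in a complex that binds the interferon-stimulated response element, a tandem GAAA motif in the promoters of its targets. Most of the members are such targets and restrain viruses. The IFIT proteins bind viral RNA, viperin (Rsad2) makes a nucleotide that stops viral RNA synthesis, and Oasl2 is an oligoadenylate synthetase-like protein. Isg15 is a ubiquitin-like modifier, Usp18 removes it from proteins and also dampens signalling at the receptor, Irf7 is the transcription factor that amplifies interferon production, and Ifi44 is an interferon-induced cytoplasmic protein.

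The members lie on 7 chromosomes of GRCm38, with coordinates that are the same in the count table and in GENCODE M21. Ifit2 (chr19:34550694-34576419), Ifit3 (chr19:34583531-34588731) and Ifit1 (chr19:34640871-34650009) share a cluster of 99316 bases on the plus strand. The others are Isg15 (chr4:156199424-156200818), Irf7 (chr7:141262706-141266481), Oasl2 (chr5:114896936-114912234), Rsad2 (chr12:26442746-26456452), Usp18 (chr6:121245906-121270917) and Ifi44 (chr3:151730922-151749960). Irf7 overlaps Phrf1 on the opposite strand, a gene with 11679 counts over the 48 libraries, and Usp18 overlaps the lincRNA Gm44148 with 220 counts. The labels describe both a directional and a non-directional library kit without saying which was used, so reads of overlapping genes cannot be told apart. Ifit3 has a near-identical neighbour, Ifit3b, whose mean level was 12.2 ± 4.82 CPM (SD, n = 48), and the split of reads between them is uncertain.

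The promoters are shown because interferon-stimulated genes are known for a shared response element. RefSeq (GRCm38.p6) gave a window from 250 bases before to 50 bases after the start for 8 of the 9 members, Usp18 being the exception, and a pair of windows for Ifit2. The motif GAAANNGAAA, searched on both strands with overlapping matches counted, stood in the windows of 4 of these 8 members (50%). It stood in 25 of 49 other interferon-stimulated genes (51.0%) and in 1079 of all 27025 genes with a window (3.99%). The 4 windows with a match are printed 5′ to 3′ on the strand of the gene, with the match in capitals (its reverse complement where it lies on the other strand). After them comes the Ifit2 window around the start of the deposited gene, which likewise begins 250 bases before that start. It has no match and is shown because Ifit2 was among the genes called below.
Isg15 (chr4:156200769-156201068, minus strand): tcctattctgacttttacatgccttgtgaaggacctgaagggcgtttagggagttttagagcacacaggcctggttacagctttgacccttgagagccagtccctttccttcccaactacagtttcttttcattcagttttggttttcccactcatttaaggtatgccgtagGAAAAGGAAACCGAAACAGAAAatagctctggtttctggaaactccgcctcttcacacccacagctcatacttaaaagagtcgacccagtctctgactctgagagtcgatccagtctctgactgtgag
Rsad2 (chr12:26456403-26456702, minus strand): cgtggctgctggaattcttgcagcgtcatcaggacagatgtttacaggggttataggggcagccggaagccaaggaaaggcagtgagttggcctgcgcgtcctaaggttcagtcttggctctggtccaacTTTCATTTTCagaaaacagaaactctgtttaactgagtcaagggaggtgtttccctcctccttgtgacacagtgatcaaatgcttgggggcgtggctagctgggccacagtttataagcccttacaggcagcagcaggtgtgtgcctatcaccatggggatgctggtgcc
Ifit3 (chr19:34583279-34583578, plus strand): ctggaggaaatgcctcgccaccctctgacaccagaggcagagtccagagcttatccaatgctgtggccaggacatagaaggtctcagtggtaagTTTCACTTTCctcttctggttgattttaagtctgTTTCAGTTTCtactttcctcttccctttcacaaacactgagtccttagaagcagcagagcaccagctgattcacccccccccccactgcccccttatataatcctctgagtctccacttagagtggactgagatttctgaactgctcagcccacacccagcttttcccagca
Ifit1 (chr19:34640639-34640938, plus strand): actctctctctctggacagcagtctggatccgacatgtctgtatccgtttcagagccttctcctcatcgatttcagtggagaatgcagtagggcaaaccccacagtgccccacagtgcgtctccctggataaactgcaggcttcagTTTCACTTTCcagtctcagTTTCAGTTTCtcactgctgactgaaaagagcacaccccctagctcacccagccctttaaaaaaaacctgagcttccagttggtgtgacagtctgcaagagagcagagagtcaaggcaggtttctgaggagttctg
Ifit2 (chr19:34550444-34550743, plus strand): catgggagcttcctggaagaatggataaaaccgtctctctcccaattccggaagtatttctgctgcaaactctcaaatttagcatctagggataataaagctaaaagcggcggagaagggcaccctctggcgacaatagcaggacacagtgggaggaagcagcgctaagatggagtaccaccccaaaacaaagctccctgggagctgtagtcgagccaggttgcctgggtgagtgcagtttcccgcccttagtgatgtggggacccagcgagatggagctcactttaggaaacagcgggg
In Isg15 there were 3 overlapping matches whose first bases lay 78, 72 and 66 bases before the start, and in Rsad2 there was 1 match at 120 bases. Ifit3 had matches at 156 and 122 bases and Ifit1 at 104 and 85 bases. Oasl2, Irf7, Ifi44 and both Ifit2 windows did not hold these letters, which says nothing about what binds there.

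All 9 genes were detected in every library. Divided by gene length, Ifit3 had the highest level, with 23.6 ± 7.74 CPM per kilobase (SD, n = 48), followed by the modifier Isg15 with 13.8 ± 6.26 and the transcription factor Irf7 with 9.30 ± 3.45 CPM per kilobase. A group of 4 came next, Ifit2 at 6.37 ± 2.68, Usp18 at 6.27 ± 2.46, Ifit1 at 5.67 ± 2.54 and Rsad2 at 5.19 ± 1.91 CPM per kilobase. Oasl2 at 1.75 ± 0.841 and Ifi44 at 1.04 ± 0.445 CPM per kilobase were lowest. Within the group of 4 the neighbours were not separated, since Ifit2 was above Usp18 in 27 of 48 libraries, Usp18 above Ifit1 in 26 and Ifit1 above Rsad2 in 28. The other neighbours kept their order in 40 to 48 of the 48 libraries. Between its lowest and highest library a member varied from 5.50-fold (Usp18) to 17.2-fold (Ifi44). The 12 groups of diet and time held 21.2% (Isg15) to 58.0% (Ifit2) of the variance of a member's log2 CPM. Part of such a share arises even where groups do not differ, since 12 means were taken from 48 libraries. For a low share such as that of Isg15 this can be all of it.

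**Figure D1:**
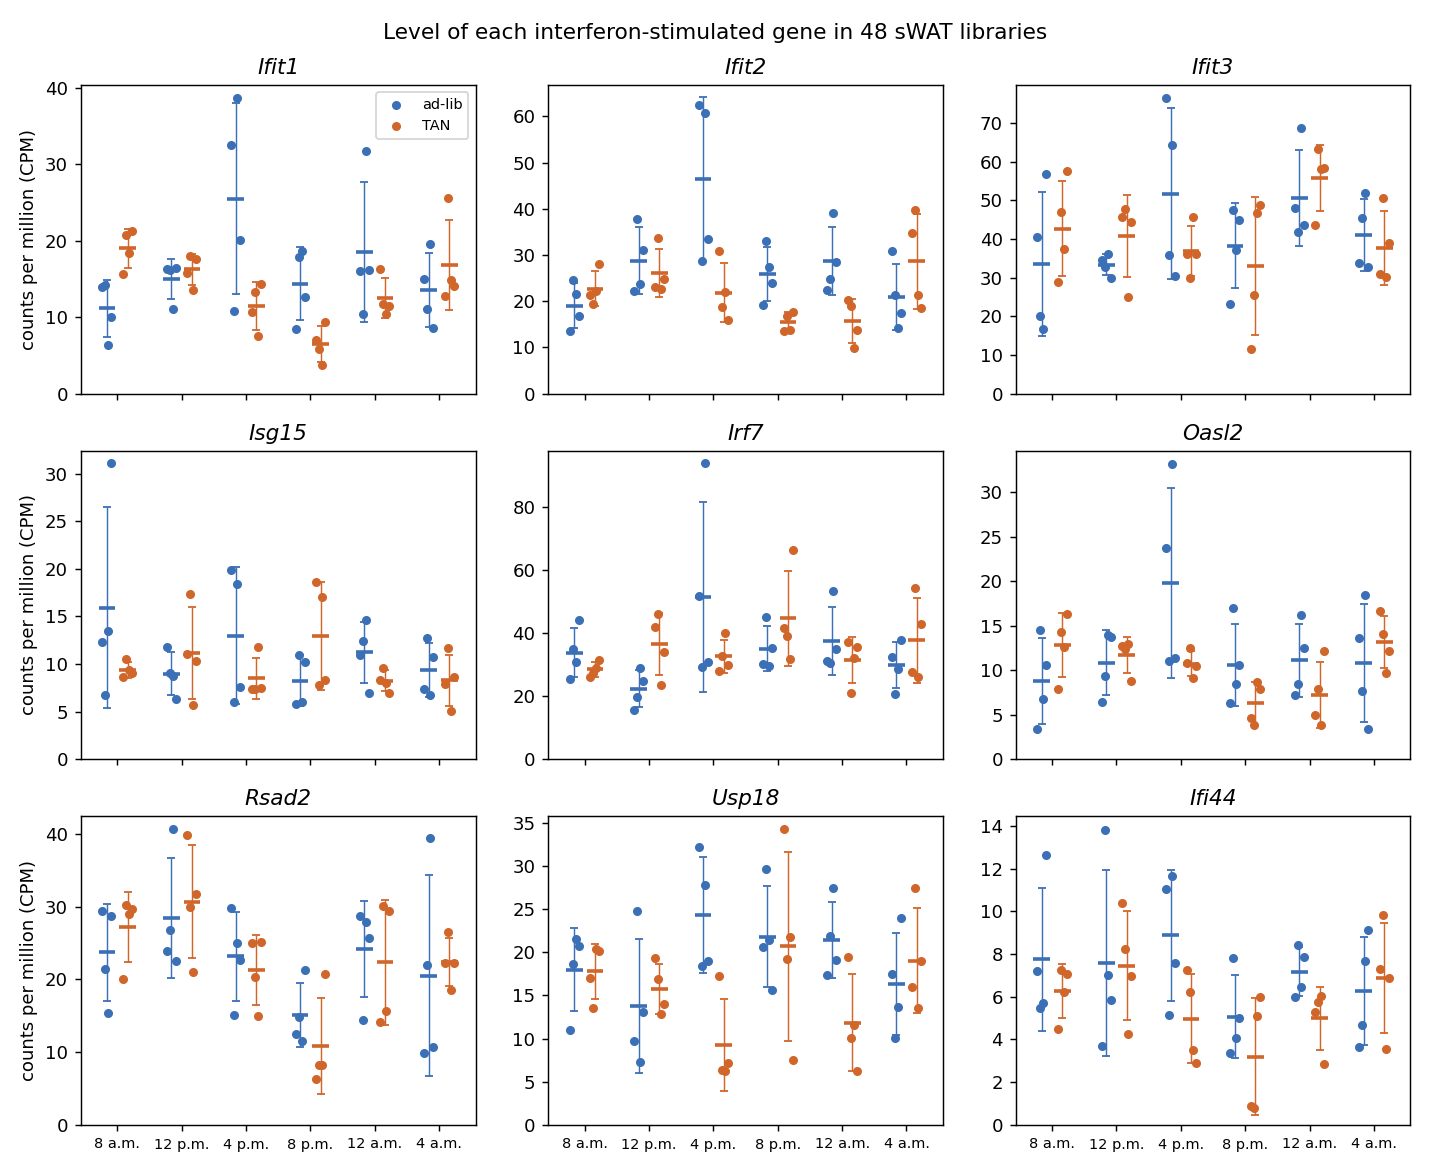
Level of each of the 9 genes in CPM (vertical axis, starting at 0) at the 6 time points (horizontal axis), with each point a library, the short line the mean and the error bar the SD of 4 libraries, blue for ad-lib and orange for TAN. The 4 p.m. ad-lib libraries held the highest group mean for 6 of the 9 genes, and the 8 p.m. TAN libraries the lowest for 6 of the 9.

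Some libraries stood apart in ways that bear on the comparisons. In 10 libraries the summed level of 10 lymphocyte markers was 9.59 to 37.6 CPM, whereas in the other 38 it was 292 to 2319 CPM (median 1123). The 10 libraries comprised 3 of 4 TAN libraries at 4 p.m., 2 of 4 TAN at 12 a.m., 1 TAN at 8 p.m., 2 ad-lib at 12 p.m. and 1 ad-lib each at 8 a.m. and 4 a.m. The share of counts on loci that GENCODE lists as TEC, gene models still awaiting proof, was 0.0294% to 0.0394% in the 4 TAN libraries of 8 p.m. and 0.0807% to 0.104% in the 4 ad-lib libraries of that time. The study's methods mention removal of lymph nodes for isolated cells and do not mention it for the bulk tissue. Time labels also differed between sources. The 12 deposited columns of group means matched the count groups of the same label, but all 48 columns of a supplementary table matched, over 979 genes, the library of the same diet and number labelled 12 h apart. Diets are therefore compared at the same label, and a clock time below means the label of the count table.

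At 4 p.m. TAN mice had lower levels of Ifit1, Ifit2 and Usp18, and all 9 genes had a negative fold change. Usp18, the protease that removes Isg15, had 32.2, 18.5, 27.8 and 19.0 CPM in the 4 ad-lib libraries and 17.2, 6.38, 6.25 and 7.20 CPM in the 4 TAN libraries. The groups did not overlap, and TAN library 1 lay close to the lowest ad-lib library. Its log2 fold change, TAN minus ad-lib, was -1.40 (standard error 0.38, edgeR adjusted p = 0.0173). The edgeR values come from the quasi-likelihood test and were Benjamini-Hochberg adjusted over the 19977 genes. At a time point a call required this p to be under 0.05 and the change to exceed 1 on the log2 scale, up or down.

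Ifit1, which binds viral RNA that lacks the host cap modification, had 32.5, 10.8, 38.6 and 20.1 CPM in ad-lib and 10.6, 13.3, 7.497 and 14.4 CPM in TAN at 4 p.m. Ad-lib library 2 lay among the TAN libraries, and the log2 fold change was -1.15 (standard error 0.34, edgeR adjusted p = 0.0238). Its neighbour Ifit2 had 62.5, 28.8, 60.8 and 33.4 CPM in ad-lib and 30.8, 18.8, 22.0 and 15.96 CPM in TAN. TAN library 1 exceeded ad-lib library 2, so these groups also overlapped, and the log2 fold change was -1.08 (standard error 0.28, edgeR adjusted p = 0.0148). Counted over the members, 3 of 9 were called lower at this time, beside 7.43% of all genes tested, and 0 of 9 were called higher, beside 2.93%. The 4 TAN libraries lay below the 4 ad-lib libraries for 1 of 9 members, beside 17.8% of all genes. The median log2 fold change was -0.83 for the members and -0.09 for all genes tested. The members and the other lists below were chosen with earlier results of these data known. Their shares and medians beside those of all genes are therefore descriptions and no test.

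The other 6 members did not pass at 4 p.m. Oasl2 had 19.8 ± 10.7 CPM in ad-lib and 10.8 ± 1.37 CPM in TAN (SD, n = 4 each), a log2 fold change of -0.88 (standard error 0.43, edgeR adjusted p = 0.139). For Ifi44 the values were 8.87 ± 3.05 and 4.97 ± 2.10 CPM, for Irf7 51.4 ± 30.1 and 32.6 ± 5.22 CPM, and for Isg15 12.97 ± 7.19 and 8.49 ± 2.18 CPM. Their log2 fold changes of -0.83, -0.66 and -0.61 had edgeR adjusted p-values of 0.213, 0.109 and 0.269. Ifit3 (-0.49, adjusted p = 0.328) and Rsad2 (-0.12, adjusted p = 0.853) were smaller still. The SD of ad-lib was close to or above the difference between the diets for each of these 6 genes, and the ad-lib libraries were split. Libraries 1 and 3 held the highest pair of values in the ad-lib group for 9 of 9 members, beside 16.7% of all genes tested, and they ranked second and first of all 48 libraries by the mean standardised log2 CPM of the 9 genes (1.69 and 1.87). Ad-lib libraries 2 and 4 of the same time ranked 30 and 16, with -0.25 and 0.18.

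Other measures moved with the 4 p.m. comparison. Lymphocyte markers summed to 921 to 1593 CPM in ad-lib and 10.4 to 313 CPM in TAN, lymph node stroma markers to 133 to 231 and 6.16 to 55.4 CPM, and dendritic cell markers to 117 to 151 and 32.8 to 66.9 CPM. Macrophage markers summed to 692 to 905 CPM in ad-lib and 295 to 881 CPM in TAN, and neutrophil markers to 28.0 to 46.2 and 2.68 to 7.27 CPM. Adipocyte markers ran the other way, with 17535 to 25114 CPM in ad-lib and 37849 to 64093 CPM in TAN. Called lower were 3 of 10 lymphocyte, 1 of 5 lymph node stroma and 3 of 6 dendritic cell markers. So were 2 of 10 macrophage, 3 of 5 tested neutrophil and 1 of 6 plasmacytoid dendritic cell markers, beside 7.43% of all genes tested. Of the endothelial markers 0 of 6 and of the stroma markers 0 of 7 were called, with median log2 fold changes of -0.08 and 0.57. Of the adipocyte markers 1 of 8 was called higher, beside 2.93% of all genes tested. In bulk tissue, fewer cells of a type and less RNA per cell cannot be told apart. Of the lymphocyte markers, 0 were without counts in any 4 p.m. library, whereas the lymph node stroma marker Ccl19 was without counts in 3 of the 4 TAN libraries.

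With the mean level of the lymphocyte markers as a covariate, 0 of the 9 members were called at 4 p.m. Ifit1 then had a log2 fold change of -1.30 (edgeR adjusted p = 0.200), Ifit2 of -0.80 (0.292) and Usp18 of -0.72 (0.415). For Ifit1 the change was larger than without the covariate. With the TEC share in that role the count was also 0, with log2 fold changes of -0.78 (edgeR adjusted p = 0.181), -0.94 (0.101) and -1.58 (0.0594) for the same genes in the same order, so the change was larger than without it for Usp18. At 4 p.m. the TEC share was 0.0882% to 0.110% in ad-lib and 0.0327% to 0.0847% in TAN. Neither this share nor the lymphocyte markers overlapped between the diets then, so these fits cannot separate diet from either measure. Leaving out the 10 libraries almost without lymphocyte markers, a choice made after the data were seen, left 1 TAN library at 4 p.m. against 4 ad-lib. Usp18 stayed called with -1.98 (edgeR adjusted p = 0.0265), whereas Ifit1 had -1.78 (0.0665) and Ifit2 -1.09 (0.151). Without ad-lib library 3 the count was 0 and without ad-lib library 1 it was 1, while it was 2 or 3 without any other library of that time. Ifit1 lost its call without ad-lib library 1 or 3 or TAN library 1 or 3, Ifit2 without ad-lib library 1 or 3 or TAN library 4, and Usp18 without ad-lib library 3.

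**Figure D2:**
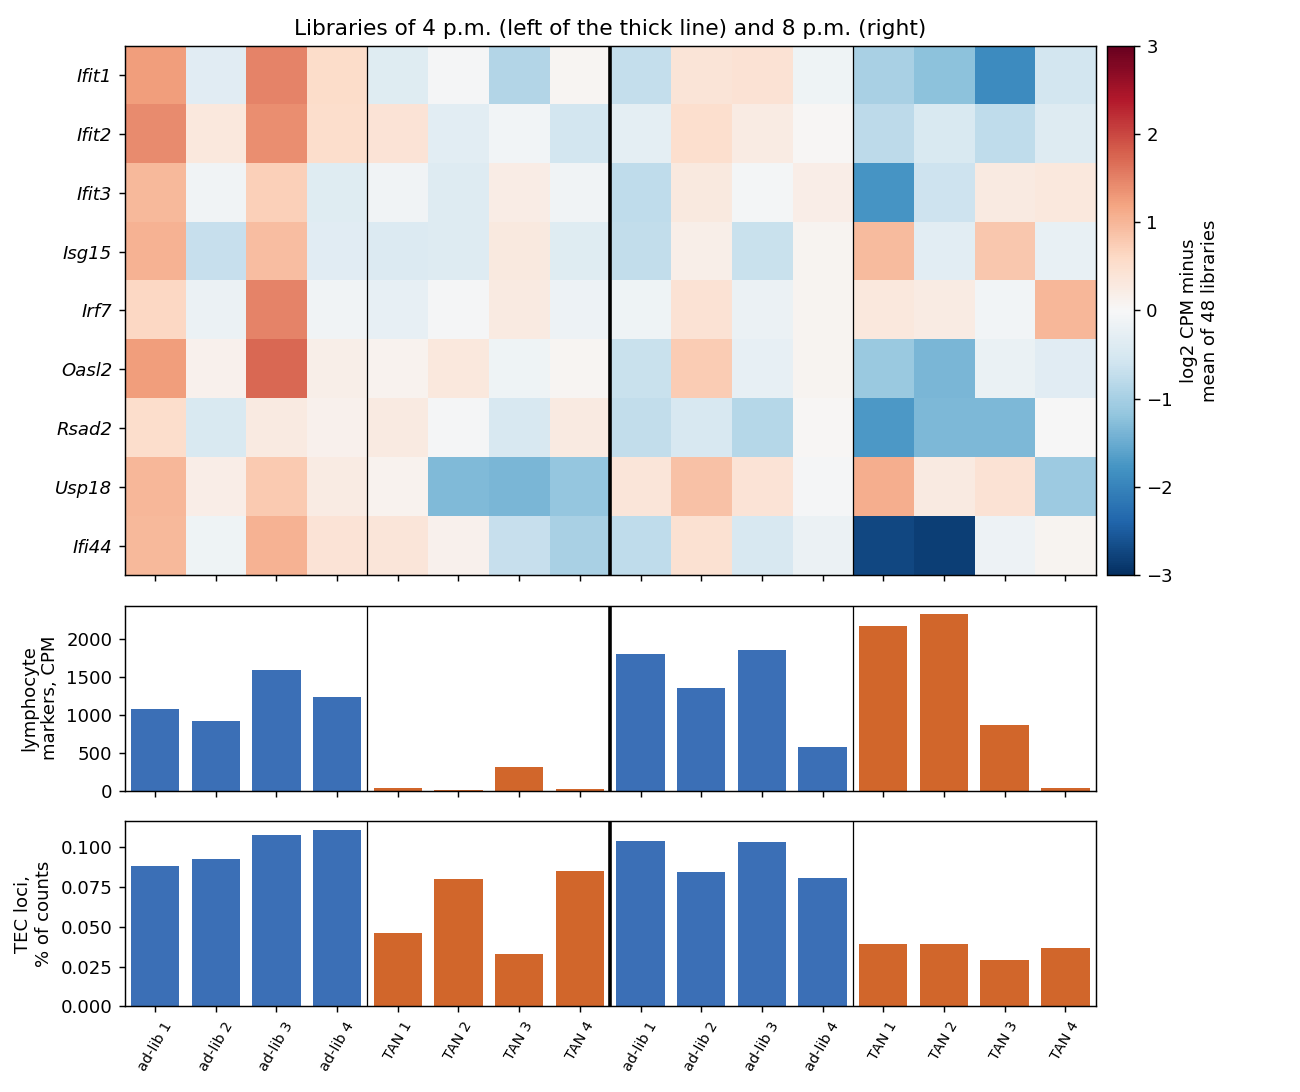
The 16 libraries of 4 p.m. and 8 p.m. (columns, with the replicate number), with the level of each gene as log2 CPM minus its mean over 48 libraries in colour (top), the summed CPM of 10 lymphocyte markers (middle, bars from 0) and the percentage of counts on TEC loci (bottom, bars from 0). Ad-lib libraries 1 and 3 of 4 p.m. are high throughout the genes, Usp18 is low in TAN libraries 2, 3 and 4 of 4 p.m., and Ifi44 is lowest in TAN libraries 1 and 2 of 8 p.m.

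At 8 p.m. Ifit1 alone was called lower in TAN mice, which is 1 of 9 members beside 5.84% of all genes tested, and 0 of 9 were called higher beside 1.19%. The 4 ad-lib libraries had 8.41, 17.9, 18.6 and 12.6 CPM of Ifit1 and the 4 TAN libraries 6.98, 5.82, 3.69 and 9.41 CPM. TAN library 4 exceeded ad-lib library 1, and the other TAN libraries lay below all ad-lib libraries. The log2 fold change was -1.15 (standard error 0.34, edgeR adjusted p = 0.0266). Ifit2 had 19.1, 33.0, 27.4 and 24.0 CPM in ad-lib and 13.5, 16.9, 13.8 and 17.7 CPM in TAN. Its groups did not overlap (1 of 9 members, beside 11.6% of all genes), but its log2 fold change of -0.74 did not pass (standard error 0.28, edgeR adjusted p = 0.0728).

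The members went in both directions at 8 p.m., with 7 negative and 2 positive fold changes. Rsad2, or viperin, had 12.5, 14.8, 11.54 and 21.3 CPM in ad-lib and 6.28, 8.18, 8.19 and 20.7 CPM in TAN. TAN library 4, the library of that group almost without lymphocyte markers, was level with the highest ad-lib library and the others were below all 4, and the log2 fold change was -0.47 (standard error 0.35, edgeR adjusted p = 0.408). Ifi44 had 0.860 and 0.802 CPM in TAN libraries 1 and 2, 5.11 and 5.97 CPM in libraries 3 and 4, and 3.37 to 7.79 CPM in ad-lib (-0.67, adjusted p = 0.385). Isg15 had 8.25 ± 2.69 CPM in ad-lib and 12.9 ± 5.68 CPM in TAN (0.65, adjusted p = 0.276), and Irf7 35.0 ± 7.11 and 44.8 ± 15.1 CPM (0.35, adjusted p = 0.464; SD, n = 4 each). Oasl2 (-0.76), Ifit3 (-0.21) and Usp18 (-0.08) did not pass either.

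The Ifit1 call at 8 p.m. held with the lymphocyte covariate (-1.19, edgeR adjusted p = 0.0131) and without the 10 libraries (-1.41, edgeR adjusted p = 0.0107), where Rsad2 was called as well (-1.001, edgeR adjusted p = 0.0169). It was lost with the TEC share as a covariate (-0.48, edgeR adjusted p = 0.604), and that share did not overlap between the diets at this time. The Ifit1 call was also lost in other settings. These were a fit of the 8 libraries of that time alone (-1.13, edgeR adjusted p = 0.177) and limma voom (-1.16, adjusted p = 0.0512). Leaving out any 1 of ad-lib libraries 2 or 3 or TAN libraries 1, 2 or 3 lost it too. The log2 fold change then ran from -1.19 to -0.96 and the edgeR adjusted p from 0.0525 to 0.0859. Without TAN library 3 the value of -0.96 missed the size threshold of 1 as well. Endothelial markers summed to 412 to 584 CPM in ad-lib and 198 to 368 CPM in TAN, with 2 of 6 called lower. Macrophage markers summed to 573 to 830 CPM and 336 to 686 CPM in that order, with 1 of 10 called lower. Stroma markers summed to 1065 to 2265 CPM and 546 to 2489 CPM, with 1 of 7 called lower. No marker of the other lists was called, and over all genes tested 5.84% were called lower. The part of these markers in the result was not tested.

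No member was called at the other 4 time points by edgeR's quasi-likelihood test. At 8 a.m. the count was 0 of 9 beside 0.015% of all genes, at 12 p.m. 0 of 9 beside 0.0901%, at 12 a.m. 0 of 9 beside 0.135% and at 4 a.m. 0 of 9 beside 0%. DESeq2 and limma voom called 0 of 9 at these times as well. At an unadjusted edgeR p under 0.05 of any size the counts were 1, 1, 2 and 0 of 9 members. Over all 19977 genes tested they were 1314, 1473, 3492 and 527. At 8 a.m. Ifit1 had 13.97, 14.2, 6.39 and 10.04 CPM in ad-lib and 15.6, 20.8, 18.4 and 21.2 CPM in TAN. The TAN libraries all lay above the ad-lib libraries (1 of 9 members, beside 2.03% of all genes), and the log2 fold change was 0.77 (standard error 0.34, edgeR adjusted p = 0.698). At 12 p.m. Irf7 had 15.6, 19.8, 29.1 and 24.9 CPM in ad-lib and 41.9, 46.0, 23.6 and 34.1 CPM in TAN, and TAN library 3 lay within the ad-lib range (0.70, standard error 0.29, edgeR adjusted p = 0.605). At 12 a.m. Ifit2 had 22.4, 24.7, 39.1 and 28.5 CPM in ad-lib and 20.3, 18.9, 9.79 and 13.8 CPM in TAN. Those groups did not overlap (1 of 9 members, beside 5.54% of all genes), and the log2 fold change was -0.87 (standard error 0.28, edgeR adjusted p = 0.139). Usp18 had a log2 fold change of -0.85 at 12 a.m. (edgeR adjusted p = 0.230), with 21.5 ± 4.42 CPM in ad-lib and 11.8 ± 5.59 CPM in TAN (SD, n = 4 each). At 4 a.m. fold changes ran from -0.18 (Isg15) to 0.45 (Ifit2) on the log2 scale.

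**Figure D3:**
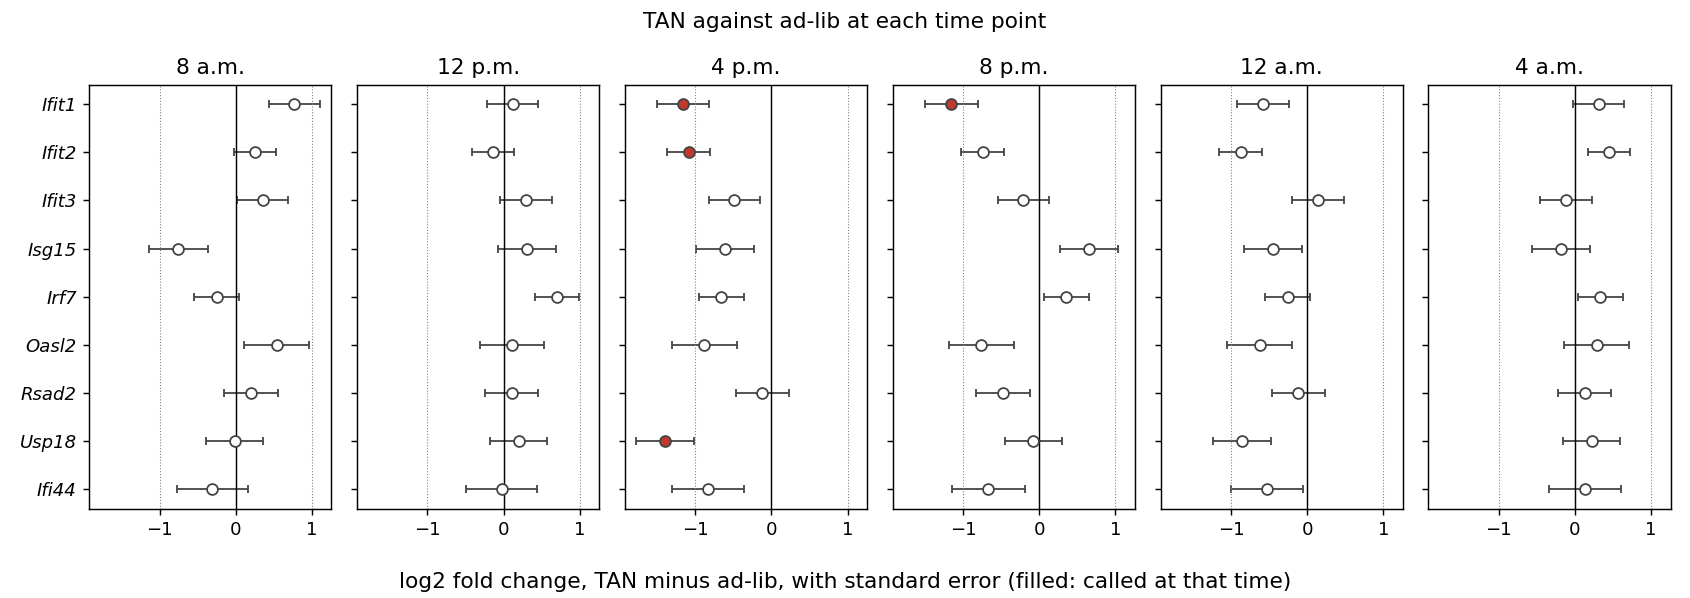
Log2 fold change of each gene, TAN minus ad-lib (horizontal axis), with its standard error from the fit of 48 libraries, in a panel for each time point, where filled points were called and dotted lines mark a value of 1 in either direction. Filled points appear for Ifit1, Ifit2 and Usp18 at 4 p.m. and for Ifit1 at 8 p.m.

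Averaged over the 6 time points, 0 of 9 members were called by edgeR's quasi-likelihood test, beside 5.42% of all genes. An unadjusted edgeR p under 0.05 was reached by 3 of 9 members, beside 4289 of all 19977 genes. The lowest adjusted p was that of Ifit2, whose mean log2 fold change was -0.36 (standard error 0.11, edgeR adjusted p = 0.0566) and levels of 28.3 ± 12.3 CPM in ad-lib and 21.7 ± 7.28 CPM in TAN (SD, n = 24 each). It passed with DESeq2, with a filter of 10 counts in every library and without the 10 libraries, as sole member in each case. It also passed without any 1 of ad-lib libraries 1 or 4 of 8 a.m., 1 of 12 p.m., 2 of 4 p.m. or 3 of 4 a.m., or TAN libraries 1 of 4 p.m., 1 of 12 a.m. or 2 of 4 a.m. The diet effect differed between time points for 2 of 9 members, Ifit1 (edgeR adjusted p = 0.0217) and Ifit2 (edgeR adjusted p = 0.0270), beside 8.98% of all genes. Ifit1 ran from 0.77 at 8 a.m. to -1.15 at 4 p.m. and 8 p.m. and back to 0.31 at 4 a.m. Ifit2 ran from 0.25 at 8 a.m. to -1.08 at 4 p.m. and to 0.45 at 4 a.m. Neither passed with the TEC share as a covariate, and without ad-lib library 3 of 4 p.m. or TAN libraries 4 of 8 a.m., 1 of 4 a.m. or 2 of 4 a.m. the count was 1.

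Variation over the day was called for 2 of 9 members within TAN, beside 23% of all genes, so the share was close to that over all genes. Ifit1 had its lowest TAN mean at 8 p.m., 6.48 ± 2.38 CPM, and its highest at 8 a.m., 19.0 ± 2.58 CPM (edgeR adjusted p = 0.0149). Rsad2 had its lowest TAN mean at 8 p.m. too, 10.8 ± 6.65 CPM, and its highest at 12 p.m., 30.6 ± 7.75 CPM (SD, n = 4 each, edgeR adjusted p = 0.0342). Without TAN library 2 of 8 p.m. the count was 0. It was 1 without TAN library 2, 3 or 4 of 8 a.m., 1 or 4 of 12 p.m., 1 or 3 of 8 p.m. or 1 of 4 a.m., and it was 4 without TAN library 4 of 8 p.m. or 1 of 12 a.m. Within ad-lib 0 of 9 were called by edgeR's quasi-likelihood test, beside 0.0551% of all genes. There 3 of 9 had an unadjusted edgeR p under 0.05, beside 1333 of all 19977 genes. Ifit2 had the lowest ad-lib value (edgeR adjusted p = 0.172), with group means from 19.0 ± 4.91 CPM at 8 a.m. to 46.4 ± 17.7 CPM at 4 p.m. (SD, n = 4 each).

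The 9 genes varied together only in part. Over the 48 libraries the 36 pairs had Pearson correlations of log2 CPM from -0.28 to 0.66 (median 0.31), of which 33 were positive, and after removal of the 12 group means the median was 0.36. The highest was that of Ifit2 and Oasl2 (0.66), followed by Ifit1 and Ifit2 (0.65). The lowest was that of Rsad2 and Usp18 (-0.28). These are descriptions over libraries that share depth, dissection and preparation, and they carry no test. Against the mean of the other 8 members, Ifit1 (0.67), Ifi44 (0.64), Ifit2 (0.63) and Oasl2 (0.62) had the highest correlations, and Usp18 (0.25) and Isg15 (0.30) the lowest.

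Members also differed in the cell type markers they followed. Usp18 had a correlation of 0.71 with the lymphocyte markers, 0.70 with the dendritic cell markers and -0.64 with the adipocyte markers. In the 10 libraries almost without lymphocyte markers its median was 8.65 CPM (6.23 to 20.7), and in the other 38 it was 19.1 CPM (6.25 to 34.3). Rsad2 ran the other way, with -0.42 for lymphocyte and 0.73 for endothelial markers, and medians of 26.9 CPM in the 10 libraries and 21.7 CPM in the others. Ifit2 was highest with macrophage markers (0.61), Oasl2 with endothelial markers (0.60), Ifi44 with stroma markers (0.57) and Ifit3 with adipocyte markers (0.50). Isg15 and Irf7 stayed between -0.22 and 0.20 for every list of markers. With the share of TEC loci the correlation was 0.70 for Ifit1, 0.59 for Oasl2 and -0.40 for Isg15. After removal of the group means these were 0.44, 0.36 and -0.58. The mean of the 9 genes had 0.12 with lymphocyte and 0.42 with macrophage markers, and -0.17 and 0.15 after removal of the group means. The correlations of single members with marker lists above include differences between the groups.

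**Figure D4:**
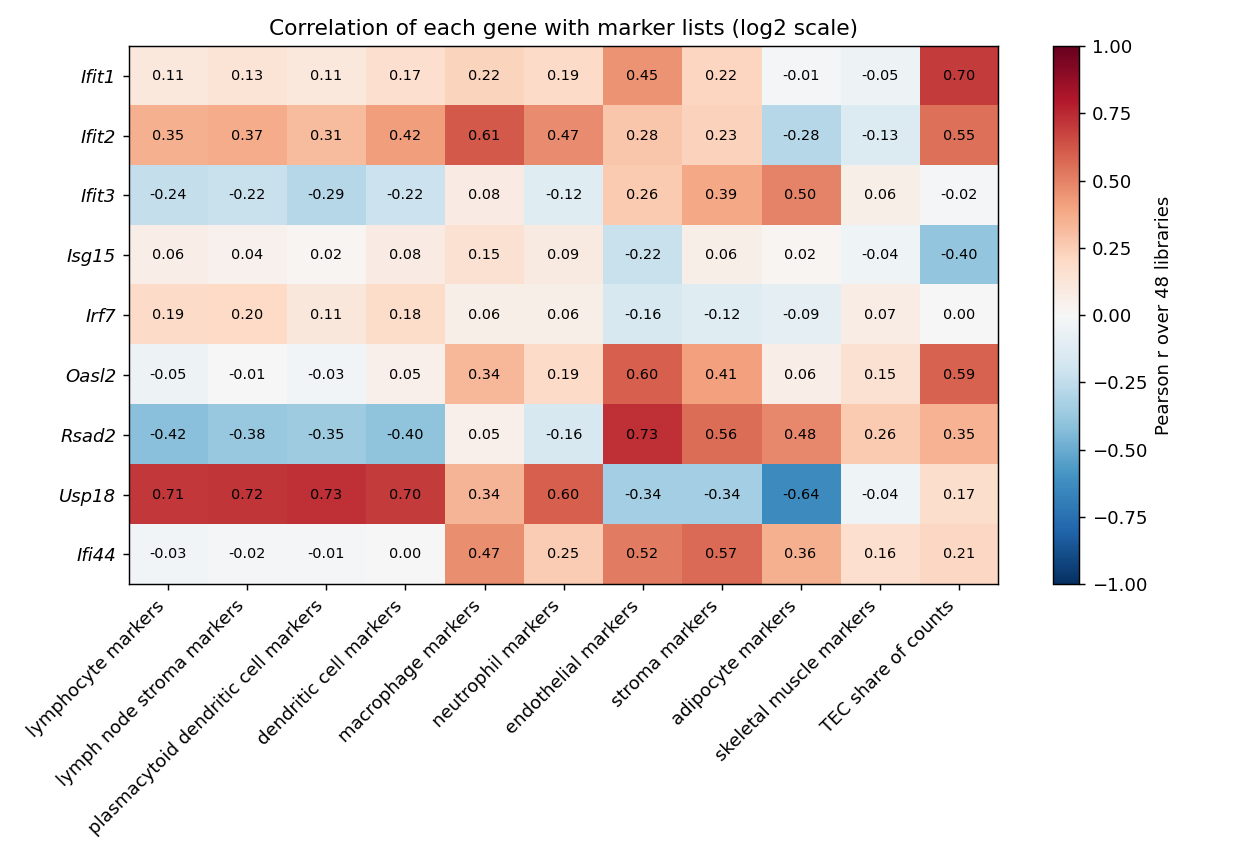
Pearson correlation over 48 libraries of the log2 CPM of each gene (rows) with 10 lists of cell type markers and with the log2 share of counts on TEC loci (columns), written in each cell and coloured from blue (negative) to red (positive). Usp18 and Rsad2 have opposite signs for lymphocyte (0.71 and -0.42) and endothelial markers (-0.34 and 0.73).

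The gene outside the members with the pattern most like their mean over the 48 libraries was Cmpk2, which encodes a mitochondrial nucleotide kinase. Its correlation was 0.82, and 0.79 after removal of the group means, at a mean level of 24.4 CPM. Cmpk2 lies next to Rsad2, with 12751 bases between them, and the correlation of these neighbours alone was 0.63. Next came Xaf1 (0.65), the GTPase Iigp1 (0.62), Oasl1 (0.60) and Mx2 (0.60). The 3 genes after those, Plcxd1, Gm13304 and Gm43359 (0.59 to 0.58), had mean levels below 0.5 CPM. Of 65 other interferon-stimulated genes tested, 9 were among the 100 genes most like the members out of 19959, and their median correlation was 0.31, whereas that of all genes compared was 0.10.

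Among the ligands, 16 of the 20 interferon genes listed had 0 counts in all 48 libraries, Ifnb1 among them, and a count of 0 allows up to 3 counts in a library. Ifna4 had 3 counts over the 48 libraries, Ifnz 23 and Ifnk 41. Ifng, the type II interferon made by lymphocytes, had 418 counts and was the only ligand that passed the filter. At 4 p.m. it had 0.0747 to 0.344 CPM in the 4 ad-lib libraries, and in TAN it was at 0 in 3 libraries and at 0.0540 CPM in the other, without overlap but not called (edgeR adjusted p = 0.1296). At 8 p.m. it had 0.400 ± 0.294 CPM in ad-lib and 1.27 ± 1.18 CPM in TAN (SD, n = 4 each, edgeR adjusted p = 0.422). Over the 6 time points its fitted log2 fold change was -0.11 (edgeR adjusted p = 0.901).

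The receptor subunits were measured well and were not called. At 4 p.m. Ifnar1 had 92.7 CPM in ad-lib and 74.1 CPM in TAN (log2 fold change -0.32, edgeR adjusted p = 0.240), and Ifnar2 64.0 and 75.8 CPM (0.24, edgeR adjusted p = 0.259). Of 21 receptor and signalling genes tested, 6 were called lower at 4 p.m. and 0 higher, beside 7.43% and 2.93% of all genes tested. Their median log2 fold change was -0.90, beside -0.09 for all genes, and 0 were called at 8 p.m. in either direction. The 6 comprised the kinases Jak1 (-1.31, edgeR adjusted p = 0.0200) and Jak2 (-1.10, edgeR adjusted p = 0.0159), and Stat2 (-1.05, edgeR adjusted p = 0.0402), a part of the complex that binds the response element. They also comprised Irf5 (-1.96), Irf8 (-2.53) and Ptpn6 (-3.13), which are known from myeloid cells and lymphocytes. Irf9, of the same complex, was not called because of its size (-0.92, edgeR adjusted p = 0.0263).

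Of 14 nucleic acid sensors and their adaptors tested, 7 were called lower at 4 p.m. and 0 higher, beside 7.43% and 2.93% of all genes, with a median of -1.32. The DNA sensor Tlr9 went from 14.1 ± 4.66 to 0.409 ± 0.338 CPM (-5.06, edgeR adjusted p = 0.0127), Aim2 from 43.9 ± 8.85 to 6.35 ± 4.32 CPM (-2.78, edgeR adjusted p = 0.0316) and the adaptor Tmem173, which encodes STING, from 78.2 ± 16.3 to 17.1 ± 10.1 CPM (-2.19, edgeR adjusted p = 0.0192; SD, n = 4 each). Of 65 other interferon-stimulated genes tested, 23 were called lower and 1 higher, beside the same shares of all genes, with a median of -1.17. Ifi213 (-4.62), Ifit1bl1 (-4.16) and Ifi209 (-3.67) had the largest decreases. Ifi27 rose from 271 ± 58.6 to 671 ± 85.4 CPM (1.31, edgeR adjusted p = 0.0234; SD, n = 4 each).

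These counts moved with the same measures as those of the members. With the lymphocyte covariate or the TEC covariate 0 of the receptor and signalling genes, the sensors and the other interferon-stimulated genes were called at 4 p.m., in either direction. Without the 10 libraries the counts called lower were 2, 2 and 8, and without ad-lib library 3 of 4 p.m. they were 0, 1 and 5. Without TAN library 1 they were 0, 2 and 8, and Ifi27 was called no longer without the 10 libraries, ad-lib library 3 or 4 or TAN library 1. The signalling count also fell to 2 or 3 without ad-lib library 1 or 4 or TAN library 2 or 4, and to 4 without TAN library 3. The sensor count fell to 3 or 4 without ad-lib library 4 or TAN library 2 or 4.

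At 8 p.m., when the summed lymphocyte markers overlapped between the diets (570 to 1845 CPM in ad-lib, 37.6 to 2319 CPM in TAN), 4 of the 65 other interferon-stimulated genes were called lower and 0 higher, beside 5.84% and 1.19% of all genes, so the share called lower was close to that over all genes. At that time 0 of the 14 sensors were called in either direction, also by DESeq2, while limma voom called 2 sensors lower. The 4 were Samd9l (-2.25, edgeR adjusted p = 0.000891), a growth and virus restriction factor that was called at 4 p.m. as well, Oas2 (-1.90, edgeR adjusted p = 0.0299), Gm4951 (-1.51, edgeR adjusted p = 0.00179) and Eif2ak2 (-1.45, edgeR adjusted p = 0.00757), which encodes the double-stranded RNA kinase PKR. They are named because they are few, after their values were seen. With the TEC share as a covariate 1 of the 65 was called lower, in the fit of that time alone 1, with the lymphocyte covariate 8 and with limma voom 9.

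**Figure D5:**
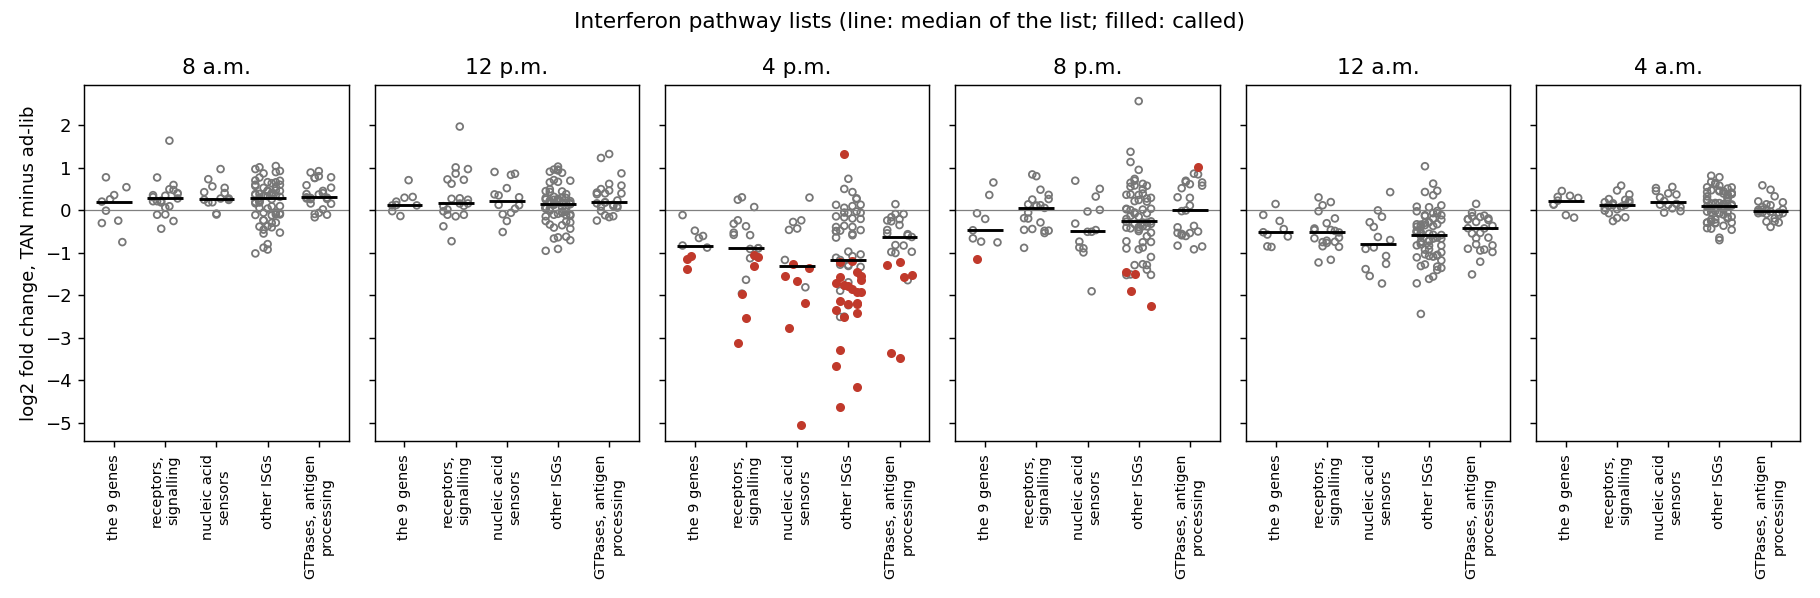
Log2 fold change, TAN minus ad-lib (vertical axis), of the tested genes of 5 interferon lists (horizontal axis) in a panel for each time point, where each circle is a gene, filled if called, and the line is the median of the list. At 4 p.m. the medians run from -0.63 to -1.32, and at 4 a.m. from -0.03 to 0.22.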

How the data were processed

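RNA with poly-A tails from the inguinal fat of mice, in 48 libraries, was reverse transcribed with random hexamers and read as paired ends on an Illumina instrument. The authors deposited raw read counts for 54532 genes in each library, with the length of each gene in bases, and FPKM values that the authors had averaged per group. The FPKM values were used only to check the time labels. Per the labels, the processing notes name TopHat 1.3.3, DESeq2 1.20.0, limma and edgeR, and builds mm9, mm10 and GRCm38. The counting tool and its strand setting are not given in the sources used here.

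Genes were kept with filterByExpr at a minimum count of 10, which left 19977. The 12 groups of diet and time were fitted over all 48 libraries with edgeR 4.0.16 in R 4.3.3 (TMM factors, robust quasi-likelihood test), so that all groups share the estimate of the spread, and p-values were Benjamini-Hochberg adjusted over all genes tested. A call needed an adjusted p under 0.05 and, at a time point, an absolute log2 fold change over 1. Correlations used log2 CPM with a prior count of 2. An exact 0 was read as up to 3 counts. The scripts were tested on simulated counts.

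Named were all 9 members, the genes of the other lists called at a time point (at most the 3 with the largest change in each direction), any ligand, receptor or signalling gene, and the 8 genes most correlated with the members. The values of 1 gene of the receptor and signalling list are not reported here. Members and lists were chosen with earlier results of these data known. Alternatives comprised other filters, RLE factors, limma 3.58.1 with voom, DESeq2 1.42.0, a replicate block, separate fits per time point, other call rules, covariates for lymphocyte markers and for TEC loci, and leaving out each library.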

Additional observations from a re-analysis of the deposited data

Results flagged for a closer look

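Among 108 groups of 4 libraries (9 genes, 12 groups each), 8 held a library whose gap to the nearest other, as a share of the range of the group, exceeded Dixon's critical value. Chance alone flags about 1 in 20 groups. In TAN at 4 p.m. Usp18 in library 1 (17.2 CPM, the others 6.25 to 7.20, share 0.913) and Isg15 in library 3 (11.8 CPM, the others 7.32 to 7.53, share 0.953) lay above the rest. In TAN at 8 p.m. Rsad2 in library 4 lay above the rest (20.7 CPM, the others 6.28 to 8.19, share 0.867). Ifit1 was high in TAN library 2 of 4 a.m. (25.5 CPM, the others 12.8 to 14.8, share 0.842) and low in ad-lib library 3 of 12 p.m. (11.03 CPM, the others 16.1 to 16.4, share 0.948). Within TAN at 12 p.m. Ifit3 was low in library 3 (24.9 CPM, the others 44.4 to 47.8, share 0.851) and Oasl2 in library 4 (8.74 CPM, the others 12.4 to 12.996, share 0.868). Rsad2 was low in TAN library 1 of 8 a.m. (19.996 CPM, the others 29.0 to 30.2, share 0.881).

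The diet effect differed between the 6 time points for Ifit1 (edgeR adjusted p = 0.0217 for the interaction) and for Ifit2 (edgeR adjusted p = 0.0270), whose values stand with the comparison over time points.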

How the results depend on the processing

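Of 1485 refits of a member's fold change, 72 turned its sign, 0 of them for a value that was called. At 4 p.m. the count of members called lower went from 3 to 0 with the lymphocyte covariate, 0 with the TEC covariate and 1 without the 10 libraries. At 8 p.m. it went from 1 to 0 with voom, the TEC covariate or separate fits, and to 2 without the 10 libraries. The count for the mean over time points went from 0 to 1 with DESeq2, with 10 counts in every library or without the 10 libraries. With the TEC covariate the counts for the effect between time points and for variation over the day in TAN went from 2 to 0. At an unadjusted edgeR p under 0.05 the counts were 3 for the mean, 4 between time points, 3 over the day in ad-lib and 4 in TAN. Over all 19977 genes tested they were 4289, 6036, 1333 and 8436 in the same order. Without filter, 2 receptor and signalling genes and 4 sensors were called lower at 4 p.m. in place of 6 and 7. The cause was not tested. Leaving out each library, the counts ran from 0 to 3 at 4 p.m., 0 to 1 at 8 p.m., 0 to 1 for the mean, 1 to 3 between time points, 0 to 0 over the day in ad-lib and 0 to 4 in TAN.

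These log2 fold changes changed sign. With 10 counts in every library, Usp18 was 0.011 at 8 p.m. With voom, Ifi44 was 0.021 at 12 p.m. and Ifit3 0.014 on average. With the lymphocyte covariate, Usp18 was -0.047 and Ifi44 0.049 at 12 p.m. and Ifit3 -0.15 at 12 a.m. With the TEC covariate, at 8 a.m. Usp18 was 0.11 and Ifi44 0.045, at 12 p.m. Ifit1 was -0.0086 and Ifi44 0.069, at 8 p.m. Isg15 was -0.36, at 12 a.m. Ifit3 was -0.16, and at 4 a.m. Ifit3 was 0.023 and Isg15 0.19. Without the 10 libraries, at 8 a.m. Usp18 was 0.0615 and Ifi44 0.053, Usp18 was -0.25 at 12 p.m. and 0.18 at 8 p.m., Ifit3 was 0.0084 at 4 a.m., and on average Ifit3 was 0.091 and Isg15 0.042. Leaving out each library, Ifi44 ran from -0.47 to 0.032 at 8 a.m., -0.26 to 0.41 at 12 p.m. and -0.11 to 0.36 at 4 a.m. Ifit1 ran from -0.022 to 0.18 at 12 p.m., Irf7 from -0.30 to 0.012 at 12 a.m., and Ifit3 from -0.45 to 0.082 at 8 p.m., -0.31 to 0.016 at 4 a.m. and -0.041 to 0.067 on average. Oasl2 ran from -0.079 to 0.23 at 12 p.m. and -0.027 to 0.67 at 4 a.m. Rsad2 ran from -0.063 to 0.31 at 12 p.m., -0.26 to 0.046 at 4 p.m., -0.27 to 0.11 at 12 a.m., -0.11 to 0.66 at 4 a.m. and -0.13 to 0.042 on average. Usp18 ran from -0.19 to 0.0735 at 8 a.m., -0.030 to 0.62 at 12 p.m., -0.44 to 0.21 at 8 p.m. and -0.033 to 0.45 at 4 a.m.

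Ad-lib and TAN samples of the same time and replicate number did not as a rule deviate together. Of 24 such pairs, 10 had a correlation over 0.1 (median -0.0127, -0.59 to 0.84), so the main fit did not pair samples by number. Samples of the same number at different times were not compared. With the replicate block 3 members were called lower at 4 p.m., no call of a member changed, and Ifi44 was 0.024 at 12 p.m. Precision was limited by 4 libraries a group and, for Ifi44, by counts as low as 17 in a library.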

Other observations

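The GTPases and antigen processing genes that respond mainly to interferon gamma were fixed as a list of 25, and all 25 were tested. At 4 p.m. 6 were called lower in TAN mice and 0 higher, beside 7.43% and 2.93% of all genes, with a median log2 fold change of -0.63, beside -0.09 for all genes. Gbp8, a guanylate binding protein, went from 31.9 ± 9.60 to 2.84 ± 2.995 CPM (-3.48, edgeR quasi-likelihood adjusted p = 0.0369), Ciita, the transactivator of class II genes, from 42.0 ± 18.0 to 4.03 ± 3.04 CPM (-3.37, edgeR adjusted p = 0.0267), and Gbp9 from 144 ± 32.4 to 48.6 ± 6.90 CPM (-1.57, edgeR adjusted p = 0.0105; SD, n = 4 each). With the lymphocyte or the TEC covariate 0 were called, without the 10 libraries almost without lymphocyte markers 3, without ad-lib library 3 or TAN library 1 the count was 2, and without TAN library 4 it was 3.

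At 8 p.m. Psmb9, a subunit of the immunoproteasome, was called higher in TAN, with 91.7 ± 6.28 CPM in ad-lib and 186 ± 106 CPM in TAN (1.02, edgeR adjusted p = 0.0399; SD, n = 4 each). That call was lost without any 1 of the 4 ad-lib libraries or of TAN libraries 1 and 2, with the replicate block and with voom. Averaged over the 6 time points, 2 of 65 other interferon-stimulated genes, 1 of 14 sensors and 1 of these 25 were called lower in TAN and 1 of the 65 higher, beside 5.42% of all genes called in either direction (547 lower and 535 higher of 19977). They were Samd9l (139 ± 58.3 CPM in ad-lib and 97.2 ± 52.1 CPM in TAN, SD, n = 24 each, -0.68, edgeR adjusted p = 0.00753), Gm4951 (-0.40, edgeR adjusted p = 0.0312), Ddx58 (-0.41, edgeR adjusted p = 0.0459), the RNA sensor RIG-I, and Cd274 (-0.24, edgeR adjusted p = 0.0328), the checkpoint ligand PD-L1, which were lower, and Parp10 (0.40, edgeR adjusted p = 0.0249), which was higher. They are named because they are few, after their values were seen.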
